A study of Homo sapiens with 6 samples.

Results

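The genes described here are the snoRNA host genes, taken as every row of the deposited tables whose symbol is SNHG followed by a number, together with GAS5, ZFAS1, DANCR, EPB41L4A-AS1 and TAF1D. The rule found 32 of the 21857 listed genes, and 29 of them had enough reads to be tested. The cells were MV4;11, an established human acute myeloid leukemia line of genotype FLT3-ITD MLL-AF4. 3 control libraries were compared with 3 libraries from cells given 10 µg/ml FKA (flavokawain A, a chalcone of the kava plant) for 48 h, and each of 3 labelled batches holds 1 control and 1 FKA library. The labels give the controls only as untreated with FKA and name no vehicle, and all 6 libraries come from this 1 line.

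Small nucleolar RNAs (snoRNAs) guide the chemical modification of ribosomal RNA in the nucleolus, where box C/D snoRNAs direct ribose methylation and box H/ACA snoRNAs direct pseudouridylation. Small Cajal body RNAs (scaRNAs) are relatives that act on spliceosomal RNAs. Most human snoRNAs are cut out of the introns of a host transcript made by RNA polymerase II, so that splicing of 1 precursor gives both a spliced host RNA and its snoRNAs. Many hosts make no known protein, and their spliced RNA is often removed by nonsense-mediated decay. Many also begin with a C followed by a run of pyrimidines, the 5′ terminal oligopyrimidine (TOP) start shared with ribosomal protein genes. The libraries measured the host transcripts per gene; mature snoRNAs were not analysed here.

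The sequences of some snoRNAs inside these genes show what the hosts carry, with hosts that fell, did not pass the test and rose in turn. They are given 5′ to 3′ from the GENCODE 29 transcripts (GRCh38). Capitals mark the TGATGA of box C and the CTGA of box D in the box C/D snoRNAs, and the ACA near the 3′ end of the box H/ACA snoRNAs.
SNORD25 of SNHG1 (chr11:62855564-62855632, minus strand): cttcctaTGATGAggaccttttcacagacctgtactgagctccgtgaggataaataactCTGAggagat
SNORD27 of SNHG1 (chr11:62855012-62855083, minus strand): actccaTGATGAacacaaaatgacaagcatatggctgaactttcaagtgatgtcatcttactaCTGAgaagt
SNORD48 of SNHG32 (chr6:31835263-31835326, plus strand): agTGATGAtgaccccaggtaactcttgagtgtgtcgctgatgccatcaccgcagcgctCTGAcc
SNORA13 of EPB41L4A-AS1 (chr5:112161485-112161617, plus strand): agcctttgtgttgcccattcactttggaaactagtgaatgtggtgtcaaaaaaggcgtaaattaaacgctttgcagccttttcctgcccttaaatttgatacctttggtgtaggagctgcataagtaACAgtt
SNORA24 of SNHG8 (chr4:118279190-118279320, plus strand): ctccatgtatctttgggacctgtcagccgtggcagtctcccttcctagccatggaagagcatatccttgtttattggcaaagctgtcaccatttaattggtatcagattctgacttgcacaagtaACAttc
SNORA26 of DANCR (chr4:52713249-52713370, plus strand): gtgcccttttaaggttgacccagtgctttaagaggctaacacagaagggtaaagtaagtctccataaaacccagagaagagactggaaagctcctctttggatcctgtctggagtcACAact
SNORD7 of SNHG30 (chr17:35573657-35573753, plus strand): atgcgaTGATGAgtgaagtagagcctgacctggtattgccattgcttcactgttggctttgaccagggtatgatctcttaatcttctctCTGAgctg
The letters were searched on the transcript strand only. In each box H/ACA snoRNA printed here 3 bases follow the ACA, and in SNORD25 and SNORD27 the CTGA stands 6 and 5 bases from the 3′ end.

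Most of these genes were lower with FKA. Of the 29 tested, 18 fell, 2 rose and 9 did not pass edgeR's quasi-likelihood test with a Benjamini-Hochberg adjusted p threshold of 0.05 over all genes. Across all 13531 tested genes 59.8% were called, with 30.5% of the tested genes called lower and 29.3% called higher. Among the tested host genes 62.1% were called lower and 6.9% higher. Scaled by library totals instead of TMM, 4992 genes were higher and 3282 lower, against 3959 and 4131 here, and 17 host genes fell and 2 rose. A fall of at least 2-fold (log2 fold change of -1 or below) was called in 12 of the 29, or 41.4%, against 13.7% of all tested genes. The median log2 fold change was -0.91 over the 29 and 0.01 over all tested genes. In each of the 18 genes that fell, all FKA libraries lay below all controls. Such a separation was found in 19 of the 29 (65.5%) and in 33.6% of all tested genes. No test of the genes as a set was made.

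**Figure D1:**
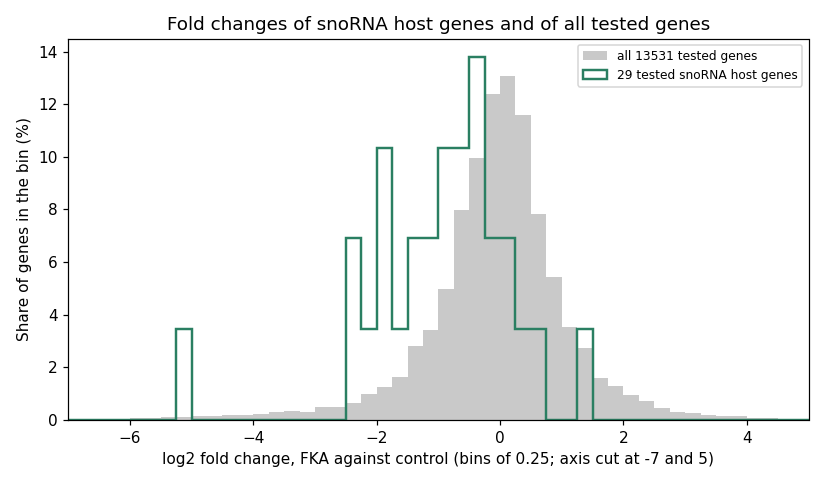
The horizontal axis is the log2 fold change of FKA against control in bins of 0.25 and the vertical axis is the share of genes in each bin in percent. Grey bars stand for all 13531 tested genes and the green outline for the 29 tested snoRNA host genes, whose median of -0.91 lies left of the median of 0.01 of all genes.

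Depth was similar in all libraries, with total gene counts from 29971171 to 36362421 and between 17457 and 18409 genes with at least 1 count. Among 13 myeloid markers of the line, PTPRC, CD33, SPI1, FLT3 and LYZ had between 1016 and 24281 counts in every library and were not called, as was CEBPA. By edgeR MPO, the granule peroxidase, fell (log2 fold change -5.36, adjusted p = 6.94e-05), as did FCGR1A (-1.82) and HOXA9 (-0.52). The receptor CSF1R rose (3.60, edgeR adjusted p = 9.46e-06), as did CD14 (2.22), ITGAM (1.51) and MEIS1 (0.58). The part of these shifts in the results was not tested. Among the markers of other cells, COL1A1 had 75, 82 and 4 counts in the controls and 11, 417 and 449 counts with FKA, while COL6A3 had 1313, 896 and 621 counts in the controls and 290, 346 and 524 counts with FKA. The summed level of 13 mesenchymal markers ran from 19.4 to 53.9 CPM in the controls and from 10.4 to 65.3 CPM with FKA. The part of such cells in the results was not tested either. All counts of host genes were repeated without FKA replicates 2 and 3, where COL1A1 was highest, though mesenchymal reads remain in the controls. Fewer cells of a type and less RNA per cell cannot be told apart in bulk RNA.

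The host transcripts together were a smaller part of the RNA with FKA. Their summed counts were 0.901%, 0.774% and 0.718% of all gene counts in the controls, against 0.421%, 0.405% and 0.424% with FKA (replicates 1 to 3 in order here and below). The sum of their TMM-scaled levels was 8440 ± 1165 CPM in the controls and 3942 ± 134 CPM with FKA (SD, n = 3). CPM here are counts relative to the TMM-scaled library size. SNHG29, GAS5, SNHG32 and ZFAS1 made up between 69.2% and 73.6% of these reads in every library. The FKA libraries lay close together and below all controls.

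**Figure D2:**
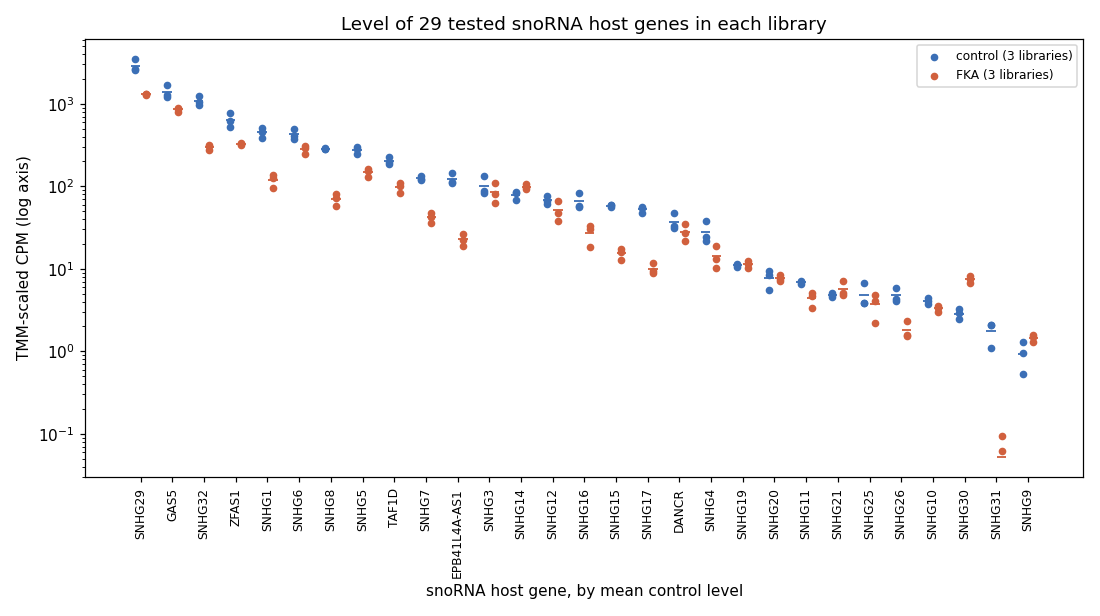
The vertical axis is the TMM-scaled CPM on a log axis and the horizontal axis lists the 29 tested genes by mean control level, from SNHG29 to SNHG9. Each point is 1 library (blue for control, orange for FKA) and each bar the mean of 3. SNHG31 had 0 counts in FKA replicate 3, which the log axis cannot show. SNHG32, SNHG1, SNHG8, EPB41L4A-AS1 and SNHG17 show wide gaps between the groups.

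Per transcript length, GAS5 was the most abundant host gene, with 1537 ± 259 FPKM in the controls (fragments relative to transcript length and library total, as deposited, SD, n = 3). SNHG32 followed with 1207 ± 139.8 FPKM and SNHG29 with 1089 ± 169 FPKM. The spreads of these neighbours in the order overlap. With FKA, GAS5 stood at 1059 ± 51.1 FPKM, SNHG29 at 548 ± 6.83 FPKM, SNHG6 at 419 ± 49.7 FPKM and SNHG32 at 372 ± 27.9 FPKM. By its mean SNHG32 thus stood below SNHG6 with FKA, whereas in the controls SNHG6 was at 567 ± 74.2 FPKM. In FKA replicates 1 to 3 SNHG32 had 384.9, 391 and 340 FPKM and SNHG6 436, 458 and 363 FPKM. SNHG32 was thus lower within each FKA library, but the ranges across these libraries overlap. The FPKM values rest on library totals, not on TMM scaling.

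SNHG31 aside, the 3 largest falls were in genes that carry box H/ACA snoRNAs, and the next were close together, with SNHG15 (box H/ACA) at -1.92 and SNHG1 (box C/D) at -1.91. EPB41L4A-AS1, the host of SNORA13, had 146, 114 and 109 CPM in the controls (replicates 1 to 3) against 26.8, 18.7 and 22.5 CPM with FKA. The groups lay far apart, and its log2 fold change was -2.44 (SE 0.161, edgeR adjusted p = 8.32e-06). SNHG17, which hosts members of the SNORA71 family, had 48, 55.8 and 55.1 CPM in the controls and 9.5, 8.78 and 11.8 CPM with FKA, a log2 fold change of -2.40 (SE 0.138, edgeR adjusted p = 5.21e-06). SNHG8, the host of SNORA24, had 285, 279.5 and 292 CPM in the controls and 71.3, 58.4 and 81 CPM with FKA. Its controls differed little among themselves, and the log2 fold change was -2.02 (SE 0.123, edgeR adjusted p = 6.35e-06). SNHG15, the host of SNORA9, had 59.5, 59.2 and 55.7 CPM in the controls and 17.5, 12.7 and 16 CPM with FKA, a log2 fold change of -1.92 (SE 0.13, edgeR adjusted p = 9.44e-06). SNHG7, which carries the SNORA17 snoRNAs, had 120.3, 121 and 132 CPM in the controls and 42.4, 36 and 47.5 CPM with FKA. With no overlap between the groups, its log2 fold change was -1.57 (SE 0.114, edgeR adjusted p = 1.17e-05).

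Smaller differences were seen in the other box H/ACA hosts. SNHG4, the host of SNORA74A, had 37.8, 21.5 and 24.5 CPM in the controls and 13.3, 10.2 and 19 CPM with FKA, with control replicate 1 above the other controls and a log2 fold change of -0.98 (SE 0.265, edgeR adjusted p = 0.0108). SNHG11, which holds SNORA60 and SNORA71E, had 6.95, 7.15 and 6.51 CPM in the controls and 4.66, 5.15 and 3.39 CPM with FKA. Its fall of -0.64 (SE 0.198, edgeR adjusted p = 0.0198) was small and lost the threshold when scaled by library totals alone (edgeR adjusted p = 0.067), without control replicate 2 (0.0547) and without FKA replicate 3 (0.0602). DANCR, a long RNA named for holding back differentiation and the host of SNORA26, had 47.4, 31.2 and 33.1 CPM in the controls and 26.9, 21.6 and 35.3 CPM with FKA. Its groups overlapped, and its log2 difference was -0.41 (SE 0.208, edgeR adjusted p = 0.115), but it passed without FKA replicate 3 (-0.62, edgeR adjusted p = 0.0337) and with no filter on low counts (-0.45, edgeR adjusted p = 0.0486). SNHG3, the host of SNORA73A and SNORA73B, had 131, 86.8 and 83.4 CPM in the controls and 81.3, 62.9 and 109.7 CPM with FKA. FKA replicate 3 lay above 2 of the controls, and the log2 difference of -0.25 (SE 0.223, edgeR adjusted p = 0.361) did not pass the test. SNHG9, the host of SNORA78, was scarce with 40, 34 and 18 counts in the controls and 48, 42 and 55 counts with FKA. Its log2 difference was 0.66 (SE 0.354, edgeR adjusted p = 0.133), though all FKA libraries lay above all controls, and it passed with limma on log2(FPKM + 1) (0.73, adjusted p = 0.0257).

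Among box C/D hosts the fall was led by SNHG1 and SNHG32. SNHG1, the classical host of the SNORD22 and SNORD25 to SNORD31 cluster, had 383, 458 and 508 CPM in the controls (replicates 1 to 3) against 125, 95.9 and 138 CPM with FKA. Every FKA value was below every control, with a log2 fold change of -1.91 (SE 0.158, edgeR adjusted p = 2.25e-05). SNHG32, formerly C6orf48 and the host of SNORD48 and SNORD52, had 1243, 1057 and 970.2 CPM in the controls and 312, 313 and 277 CPM with FKA, a log2 fold change of -1.86 (SE 0.121, edgeR adjusted p = 7.89e-06). SNHG26, the host of SNORD93, was at a low level of 5.92, 4.11 and 4.34 CPM in the controls and 1.52, 1.59 and 2.33 CPM with FKA. It fell by a log2 fold change of -1.39 (SE 0.259, edgeR adjusted p = 0.00159). SNHG16, which carries the SNORD1 snoRNAs, had 83, 55.7 and 58.2 CPM in the controls and 30.5, 18.4 and 33.4 CPM with FKA. Control replicate 1 was the highest and FKA replicate 2 the lowest of these, and the log2 fold change was -1.26 (SE 0.23, edgeR adjusted p = 0.00146).

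The other box C/D hosts that fell had log2 fold changes from -1.15 to -0.60. SNHG29, the host of SNORD49A, SNORD49B and SNORD65, had 3505, 2577 and 2626 CPM in the controls and 1290.3, 1305 and 1321 CPM with FKA. The FKA libraries agreed closely, control replicate 1 stood above the other controls, and the log2 fold change was -1.15 (SE 0.138, edgeR adjusted p = 0.000145). ZFAS1, transcribed from the start region of ZNFX1 and the host of the SNORD12 snoRNAs, had 771, 618 and 517 CPM in the controls and 327, 334 and 315 CPM with FKA, a log2 fold change of -0.97 (SE 0.141, edgeR adjusted p = 0.000434). SNHG5, the host of SNORD50B, had 296, 286 and 249 CPM in the controls and 160.4, 129.8 and 153 CPM with FKA. Here the log2 fold change was -0.91 (SE 0.112, edgeR adjusted p = 0.000171). GAS5, known as an RNA that builds up in growth-arrested cells and as a decoy for the glucocorticoid receptor, had 1684, 1262 and 1203 CPM in the controls and 855, 801 and 899 CPM with FKA. Its fall of -0.70 (SE 0.141, edgeR adjusted p = 0.00245) was among the smaller ones, and the groups did not overlap. SNHG6, the host of SNORD87, had 497, 404 and 378 CPM in the controls and 294, 305 and 247 CPM with FKA, a log2 fold change of -0.60 (SE 0.131, edgeR adjusted p = 0.00387).

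SNHG31 had the lowest fitted value of all 29, but few reads. It had 34, 75 and 71 counts in the controls and 2, 3 and 0 counts with FKA, a fitted log2 fold change of -5.03 (SE 0.638, edgeR adjusted p = 0.0002). Over the group, 180 counts against 5 give a level 35.4-fold higher in the controls, with an exact 95% interval of 14.9 to 110.5 that covers counting error only. Leaving out 1 library at a time gave log2 values from -5.72 to -4.44.

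**Figure D3:**
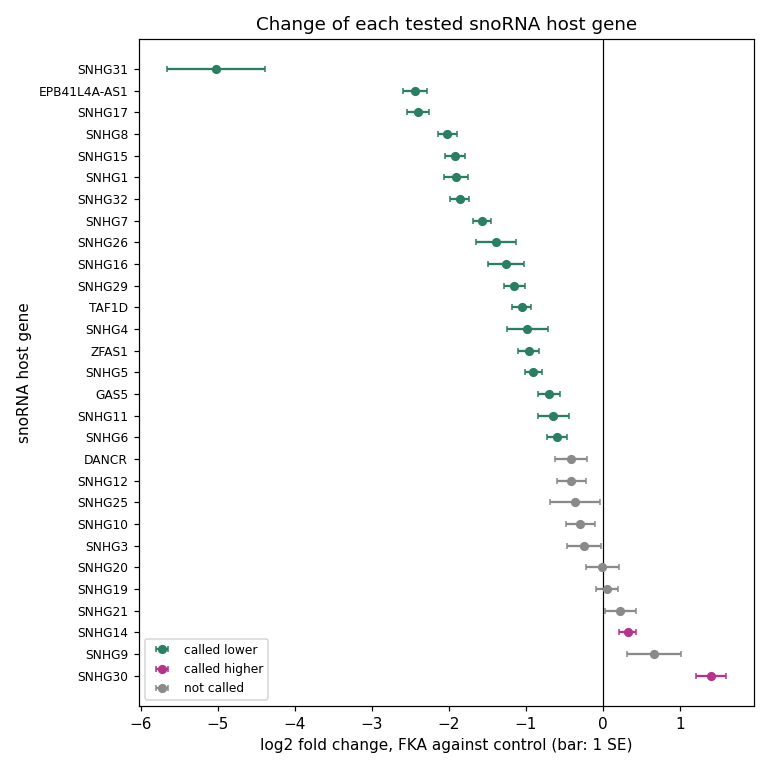
The horizontal axis is the log2 fold change of FKA against control with bars of 1 SE, and the vertical axis lists the 29 tested genes. Green points were called lower, magenta points called higher and grey points not called. SNHG31 at -5.03 has the widest bar, and SNHG14 and SNHG30 are the genes called higher.

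TAF1D differs from the rest in coding a protein, a subunit of the SL1 complex that brings RNA polymerase I to ribosomal DNA. Within its span lie both box H/ACA and box C/D snoRNAs, 6 and 2 of them in GENCODE 29. It had 228, 185 and 199 CPM in the controls and 110.1, 83 and 101 CPM with FKA, and the log2 fold change was -1.06 (SE 0.126, edgeR adjusted p = 0.000143). SNHG12, which also carries both classes, had 76.4, 65.7 and 61.1 CPM in the controls and 48.1, 37.8 and 66.8 CPM with FKA. FKA replicate 3 reached the range of the controls, and the log2 difference of -0.41 (SE 0.189, edgeR adjusted p = 0.0877) did not pass the test, but without FKA replicate 3 it did (-0.66, edgeR adjusted p = 0.00708), and likewise with no filter on low counts (-0.45, edgeR adjusted p = 0.0285). SNHG25, the host of SNORD104, had 6.66, 3.85 and 3.87 CPM in the controls and 4.1, 2.22 and 4.83 CPM with FKA, with a log2 difference of -0.36 (SE 0.33, edgeR adjusted p = 0.366).

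The scaRNA hosts stood near 0. SNHG10, which holds SCARNA13, had 4.37, 4.08 and 3.72 CPM in the controls and 3.38, 3 and 3.54 CPM with FKA, a log2 difference of -0.29 (SE 0.191, edgeR adjusted p = 0.212) with all FKA values below all controls. SNHG20, which holds SCARNA16, had 9.46, 8.32 and 5.56 CPM in the controls and 7.61, 7.03 and 8.51 CPM with FKA. Its groups overlapped, and its log2 difference of -0.01 (SE 0.213, edgeR adjusted p = 0.969) changed sign under 10 alternatives. SNHG21, which holds SCARNA15, had 4.86, 5.08 and 4.58 CPM in the controls and 5.12, 4.78 and 7.07 CPM with FKA, a log2 difference of 0.23 (SE 0.201, edgeR adjusted p = 0.355). SNHG19, the box C/D host of SNORD60, was near 0 as well with 11.2, 11.4 and 10.6 CPM in the controls and 10.3, 11.5 and 12.6 CPM with FKA and a log2 difference of 0.05 (SE 0.138, edgeR adjusted p = 0.759), which was -0.02 without FKA replicate 3. Grouped by the snoRNAs inside them, 8 of 11 hosts of box C/D snoRNAs alone fell and 2 rose (median log2 fold change -0.97). Of 10 hosts of box H/ACA snoRNAs alone, 7 fell (-1.27). Of 3 hosts of both 1 fell, and none of the 3 scaRNA hosts did by edgeR (-0.01). Over all tested genes 30.5% were called lower, and groups of 3 are too small to set beside that share. SNHG10, SNHG20 and SNHG21 were also scarce, with control means of 4.06, 7.78 and 4.84 CPM. The differences between these classes were not tested. GAS5, long known as a box C/D host, and SNHG31 were not classed here, because no snoRNA was matched to them through GENCODE 29.

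The genes that rose were SNHG30 and SNHG14. SNHG30, the host of SNORD7, had 3.22, 2.43 and 2.88 CPM in the controls and 7.61, 8.19 and 6.73 CPM with FKA. The groups were clearly apart, and the log2 fold change was 1.40 (SE 0.19, edgeR adjusted p = 0.000289). SNHG14, the long transcript of the Prader-Willi region that carries the SNORD115 and SNORD116 arrays and runs antisense into UBE3A, had 84.8, 68.4 and 83.6 CPM in the controls and 107, 91.9 and 96.9 CPM with FKA. Its rise of 0.32 (SE 0.108, edgeR adjusted p = 0.029) was small, though the groups did not overlap. It lost the threshold without control replicate 2 (0.22, edgeR adjusted p = 0.0977), without FKA replicate 1 (0.26, 0.112) and without FKA replicate 3 (0.33, 0.0592), and with no filter on low counts (0.28, 0.0505).

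3 genes were not tested for lack of reads. SNHG22 had 1 count in FKA replicate 2 and SNHG27 had 1 count in control replicate 3, with 0 in the other libraries of each. SNHG28 had 0 counts in all controls and 3, 1 and 1 counts in FKA replicates 1 to 3.

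The genes were also counted by level. Of the 12 host genes with a control mean of at least 100 CPM, 11 fell and SNHG3 did not pass the test, while of the 17 below that level 7 fell and 2 rose. Over all tested genes, 46.6% of those at or above 100 CPM and 27.2% of those below it were called lower. The level of 100 CPM was chosen after the values were seen.

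The place of each library within its group was counted across the genes. Control replicate 1 was the highest control in 21 of the 29 genes. Within the FKA group, replicate 3 was the highest library in 18 genes and replicate 2 the lowest in 20. Without control replicate 1 the median log2 fold change of the 29 was -0.71, and the count of falls was again 18. Leaving out each library in turn gave between 17 and 19 falls. Without FKA replicates 2 and 3 together, the libraries with the most COL1A1 reads, 15 genes fell, and GAS5 (-0.70, edgeR adjusted p = 0.0596), SNHG6 (-0.55, 0.07), SNHG11 (-0.57, 0.133) and SNHG14 (0.43, 0.084) were no longer called. The single FKA library left in that fit is assumed to vary like the controls.

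Some host genes lie across or beside other genes, and the use of strand in counting is not given in the sources used here, so reads of overlapping genes cannot be told apart. The overlaps are those of GENCODE 29, and the overlapping genes were picked after values were known. SNHG3 shares its strand and part of its span with RCC1, the nucleotide exchange factor of the GTPase RAN. RCC1 fell from 126 ± 5.11 to 53.5 ± 8.4 CPM (SD, n = 3; log2 fold change -1.24, edgeR adjusted p = 4.65e-05), beside the value of -0.25 for SNHG3. SNHG4 lies with MATR3, a nuclear matrix RNA-binding protein, whose log2 fold change was -0.49, edgeR adjusted p = 0.0014. On the opposite strand of ZFAS1, ZNFX1 stood at -0.02, edgeR adjusted p = 0.905. ZBTB37, opposite GAS5, stood at 0.22, edgeR adjusted p = 0.176. In the SNHG14 region, SNRPN (0.86, edgeR adjusted p = 0.0099) and PWAR6 (1.07, edgeR adjusted p = 0.000156), on the same strand, were called higher, while UBE3A on the other strand stood at -0.04, edgeR adjusted p = 0.679. Both strands held called and uncalled genes. On the same strand, SEC14L1 at SNHG20 (-0.04, edgeR adjusted p = 0.849) and PWAR5 at SNHG14 (0.38, 0.0873) were not called. Opposite SNHG7, DIPK1B (1.19 CPM in the controls) was called lower (-1.18, edgeR adjusted p = 0.0253). At TAF1D, CEP295 (-0.08) and MED17 (0.29) on the opposite strand were not called. Nor were LRRC75A opposite SNHG29 (-1.23), MCMDC2 opposite SNHG6 (1.13) and TRNAU1AP opposite SNHG12 (0.18).

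By the order of start sites in RefSeq, 15 of the tested host genes with a promoter entry have a head-to-head neighbour, and 10 of these neighbours were tested. In 5 pairs the starts lie within 1000 bases. SNHG1 faces SLC3A2, the heavy chain of amino acid transporters, which fell from 399.9 ± 56.8 to 217 ± 46.4 CPM (log2 fold change -0.88, edgeR adjusted p = 0.00161). SNHG31 faces BARD1, the partner of BRCA1 in DNA repair, which also fell (log2 fold change -1.68, edgeR adjusted p = 7.14e-05). TAF1D faces C11orf54, which rose (log2 fold change 0.39, edgeR adjusted p = 0.011). GLRX5, a mitochondrial iron-sulfur protein beside SNHG10, fell (log2 fold change -0.56, edgeR adjusted p = 0.0019), and so did TRAF7 beside SNHG19 (log2 fold change -0.51, edgeR adjusted p = 0.00121). Neighbours with more distant starts were NREP (-0.52, edgeR adjusted p = 0.0264) upstream of EPB41L4A-AS1, SIL1 (0.35, edgeR adjusted p = 0.0356) upstream of SNHG4 and AP3B2 (0.81, edgeR adjusted p = 0.0666) upstream of SNHG21, and SNHG17 and SNHG11 face each other. The pairs thus went the same way in some cases and opposite ways in others.

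**Figure D4:**
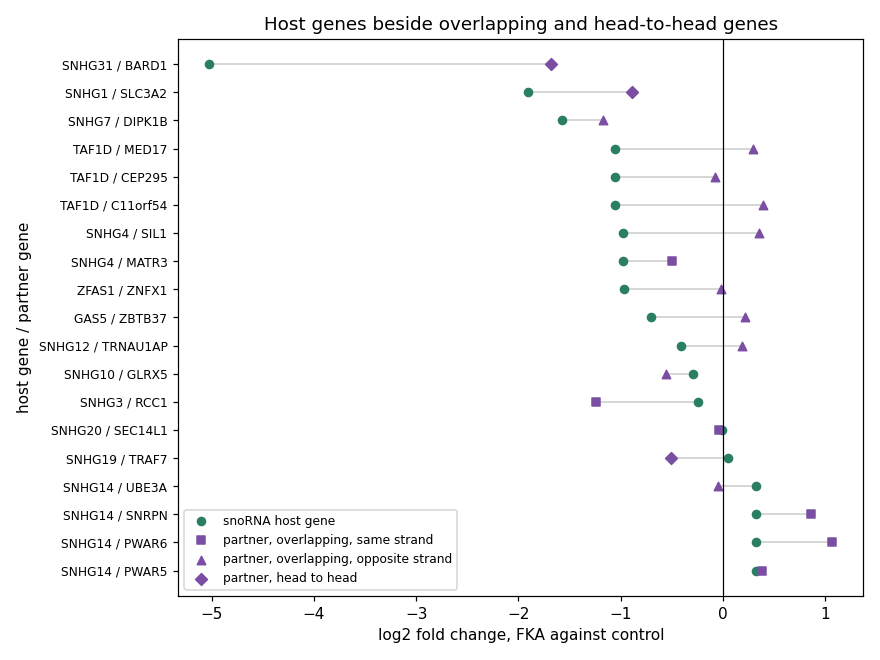
The horizontal axis is the log2 fold change of FKA against control, and each line joins a host gene (green circle) to a partner (purple) with at least 1 CPM in a group. Squares are partners overlapping on the same strand, triangles overlapping on the opposite strand and diamonds head-to-head partners that do not overlap. C11orf54 beside TAF1D and GLRX5 beside SNHG10 are both head to head and overlapping, and are drawn as triangles. SNHG1 with SLC3A2 and SNHG31 with BARD1 lie left of 0 together, while TAF1D and C11orf54 lie on opposite sides.

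The promoter window of SNHG1 is printed because it faces SLC3A2 and both genes fell. It is the RefSeq promoter window (GRCh38.p14) from 250 bases before the start to 50 after, with transcribed bases of SNHG1 in capitals.
SNHG1 (chr11:62855836-62856135, minus strand): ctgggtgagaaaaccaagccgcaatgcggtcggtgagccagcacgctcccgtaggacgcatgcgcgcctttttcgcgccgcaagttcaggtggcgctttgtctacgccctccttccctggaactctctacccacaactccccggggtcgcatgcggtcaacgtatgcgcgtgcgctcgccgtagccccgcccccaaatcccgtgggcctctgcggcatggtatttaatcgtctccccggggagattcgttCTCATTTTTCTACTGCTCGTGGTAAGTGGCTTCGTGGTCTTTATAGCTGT
Windows of 300 bases were searched for CACGTG, the E-box bound by MYC and its relatives, which reads the same on both strands. It was found in 2 of the 25 tested host genes with a promoter entry, SNHG7 and SNHG30, or 8% of them. In the promoters of tested genes 9.29% of 15243 windows hold it, and of all 35116 RefSeq windows 7.26% do. Some tested genes have several windows, while the 25 host genes have 25.

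Start sites are shown next because TOP starts are a known trait of snoRNA hosts. The windows run from 12 bases before the RefSeq start (GRCh38.p14) to 18 bases from it, and capitals mark a C at the start followed by at least 4 bases that are each C or T, searched on the transcript strand. The first 4 windows hold such a start and the others do not.
SNHG32 (chr6:31834904-31834933, plus strand): gccattttagttCTTTTTgcgaagtgggct
ZFAS1 (chr20:49278630-49278659, plus strand): aagccattcgttCTTTCgcgtctgcggtgc
SNHG5 (chr6:85678716-85678745, minus strand): gcgcacttcggtCTTTTacgtcggccttcg
SNHG12 (chr1:28581856-28581885, minus strand): cggcttcagcgcCCTTTCTCCCCgccgcat
SNHG1 (chr11:62855868-62855897, minus strand): gggagattcgttctcatttttctactgctc
SNHG8 (chr4:118278750-118278779, plus strand): gcctcggcctttcacattcgggaagcgtcg
EPB41L4A-AS1 (chr5:112160514-112160543, plus strand): actcatgaattctgtcgggtcccaaaatac
SNHG30 (chr17:35568102-35568131, plus strand): gctgtaagacctgagccgggcggagaagca
This start was found in 7 of the 25 host genes (28%), against 5.36% of the 15243 windows of tested genes and 4.07% of all 35116. Some tested genes have several windows, while the 25 host genes have 25, so the shares differ in unit. The 7 were SNHG32, TAF1D, SNHG4, ZFAS1, SNHG5, SNHG12 and SNHG19. Of these 7, 5 fell, and the median log2 fold change of the 7 was -0.97. Of the 18 host genes without it 11 fell and 2 rose, with a median of -0.93. Among the tested genes with a promoter entry, 40.2% of 798 with such a start and 30.5% of 9810 without it were called lower. The starts used in these cells were not measured. With the same letters allowed within 5 bases of the start, 13 of the 25 host genes (52%) held them, against 22.5% of the windows of tested genes.

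The transcripts of proteins that bind snoRNAs fell too. All values given here for these proteins are RNA levels, and protein was not measured. All 4 core proteins of box C/D particles were lower (median log2 fold change -1.19): NOP58 went from 184 ± 34.4 to 54.6 ± 12.7 CPM (-1.75), the methyltransferase fibrillarin (FBL) stood at -1.32, NOP56 at -1.05 and SNU13 at -0.88. All 4 core proteins of box H/ACA particles were lower as well (median -1.26), with GAR1 going from 48 ± 11.4 to 13.5 ± 4.04 CPM (-1.83), the pseudouridine synthase dyskerin (DKC1) at -1.42, NHP2 at -1.10 and NOP10 at -0.40. Of 12 assembly factors, 8 fell and 4 did not pass (median -0.71). The ATPase RUVBL1 (-1.54), the nucleolar protein NOLC1 (-1.36), TCOF1 (-1.25) and ZNHIT6 (-0.99) led them. In edgeR's fit each named member passed the adjusted p threshold of 0.05. These lists and the share of 30.5% of all genes called lower stand side by side without a test.

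Protein-coding snoRNA hosts mostly moved down. Of 35 tested, 30 fell and 5 did not pass (median -0.64), among them NOP58, WDR43 (-1.69), RPSA (-1.46) and DKC1, which are counted in this list for their own intronic snoRNAs. Ribosomal protein genes have many processed pseudogenes, and their reads can be shared with such copies. Of 15 translation factors and other genes with a TOP start, 11 fell, 1 rose and 3 did not pass (median -0.59). EEF1B2 (-1.18), EIF4B (-1.15), HNRNPA1 (-1.07) and NPM1 (-1.05) fell the furthest, and TPT1 was the gene that rose (0.36, edgeR adjusted p = 0.0295). EEF1B2, RACK1 and EEF2 are in both lists. Over all tested genes 30.5% were called lower and 29.3% higher. Most genes of both lists had control means of at least 100 CPM, where 46.6% of all tested genes were called lower. Neither list was tested as a set.

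Factors of nonsense-mediated decay, the pathway that removes many spliced host RNAs, went both ways. Of 10, 6 fell, 2 rose and 2 did not pass (median -0.37). Over all tested genes 30.5% were called lower and 29.3% higher, and this list was not tested as a set. UPF2 went from 177 ± 13.4 to 99.7 ± 4.32 CPM (log2 fold change -0.83, edgeR adjusted p = 8.48e-05), SMG9 stood at -0.68 and SMG5 at -0.67, and the members that rose were SMG8 (0.56, edgeR adjusted p = 0.012) and the kinase SMG1 (0.30, edgeR adjusted p = 0.0131).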

How the data were processed

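Per the labels, total RNA of MV4;11 cells was extracted with a commercial kit and sequenced in 6 libraries, grouped by title and treatment. The builds named by the submitters' processing notes, GRCm38 and mm10, are those of mouse, while the symbols are human, so coordinates come only from the references. The aligner, counter, annotation and strand use are not given in the sources here.

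The authors deposited whole-number read counts per gene and FPKM values for 21857 genes. Each deposited FPKM equals the count divided by the column total and 1 length per gene (largest relative deviation 5.4e-07), so both hold the same measurements. No library was a copy of another: within groups, chi-square divided by its degrees of freedom ran from 21.7 to 66.3.

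Counts were fitted in R 4.3.3 with edgeR 4.0.16: filterByExpr (13531 genes kept, at least 99.94% of counts), TMM, the quasi-likelihood F test for treatment, and Benjamini-Hochberg adjusted p-values over the kept genes with a threshold of 0.05. The SE is the log2 fold change divided by the root of F. The biological coefficient of variation was 15.4%. The code was tested on simulated data. The labels do not say that libraries are separate cultures, so p-values measure the spread between these libraries.

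The batch label equals the replicate number and pairs the libraries by the labels. Correlations of deviations from group means within batches 1, 2 and 3 were 0.05, 0.345 and -0.08. The fit was repeated with the batch as a block.

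The host genes and lists were chosen with earlier results of these data known. All host genes are reported, from each pathway list the 4 called members that changed most, and head-to-head neighbours by RefSeq order that were tested. Overlapping genes, SMG1, TPT1 and COL1A1 were named after their values were seen. 1 overlapping gene is not reported here. All 32 symbols matched RefSeq (GRCh38.p14), 31 matched GENCODE 29 (GRCh38), and 25 tested genes had a promoter entry.

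The other marker lists (epithelial, erythroid, T and NK, B and megakaryocyte) had as most abundant members KRT18, TFRC, NKG7, PAX5 and GP9. Of their tested members 1 of 3, none of 2, 1 of 1, 1 of 2 and none of 1 were called by edgeR, all lower. Of the 13 tested myeloid markers 4 rose and 3 fell, and of 7 tested mesenchymal markers 1 fell. Alternatives were DESeq2 1.42.0, other scalings and filters, limma 3.58.1 on log2(FPKM + 1) and log2(FPKM + 0.1), and leaving out libraries.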

Additional observations from a re-analysis of the deposited data

How the results depend on the processing

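With the replicate block 18 host genes fell and 2 rose, as without it, and the batch changed no call of a host gene. The lower calls numbered between 17 and 20 over all settings that kept at least 5 libraries. Over all genes, without FKA replicates 2 and 3 together, 2020 were higher and 2599 lower. With library totals the median over all genes rose from 0.01 to 0.17 (log2) and calls numbered 4992 higher and 3282 lower, against 3959 and 4131 with TMM. In that fit 17 host genes fell and 2 rose, and 7 genes of the snoRNA pathway lists were higher, against 3. The count of host genes that rose was 1 with no filter and 1 without FKA replicates 2 and 3 together, and from 1 to 2 when leaving out 1 library. The limma fits on FPKM called 3 higher. The value of SNHG19 (0.05) was -0.11 without FKA replicates 2 and 3 together and from -0.020 (without FKA replicate 3) to 0.12 when leaving out 1 library. The value of SNHG20 (-0.01) was 0.014 with the replicate block, 0.055 with upper-quartile scaling, 0.15 with library totals, 0.013 with at least 1 CPM in 3 libraries, 0.13 with log2(FPKM + 1), with and without a mean FPKM of at least 1, and 0.17 with log2(FPKM + 0.1). Leaving out 1 library gave -0.21 to 0.14. The cause was not tested. Low counts limit SNHG31, SNHG9 and the 3 untested genes.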

Other observations

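The order of levels depended on the scale for genes of unusual length. SNHG14 had 78.9 ± 9.15 CPM in the controls but 3.87 FPKM, since the deposited FPKM used a length of 19263 bases for it. SNHG25 had 4.79 ± 1.62 CPM in the controls but 40.7 FPKM, with a length of 111 bases. GAS5-AS1, which overlaps GAS5 on the opposite strand, had 2, 10 and 7 counts in the controls and 10, 12 and 16 counts with FKA, and did not pass edgeR's test (log2 difference 1.02, adjusted p = 0.123).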
